A study of Mus musculus with 8 samples.

Results

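The 8 genes described here encode astrocyte membrane proteins with a part in water, potassium and small molecule transport or in cell volume control. These are Aqp4 (AQP4 in the count table), Mlc1 (MLC1), Kcnj10 (KCNJ10), Kcnj16 (KCNJ16), Kcnj13 (KCNJ13), Atp1b2 (ATP1B2), Gja1 (GJA1) and Gjb6 (GJB6). They were picked by symbol, all 8 were among the 13937 genes of the count table, and all 8 were among the 13509 genes tested. The set was chosen by the roles of the genes with TGF-β responses of these same libraries already known, so the TGF-β values of the 8 genes are given as a description, without p-values. P-values are given for the differences between genotypes, and for pathway genes and cell type markers outside the set. The lists of pathway genes and markers were also chosen with earlier results of these data known. Their TGF-β p-values are therefore a description and not an independent test.

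The libraries came from primary brain astrocytes of 1-day-old C57BL/6 pups, either wild type (WT) or lacking RGC-32 (RGC-32 KO), a cell cycle regulator that takes part in TGF-β signaling and is encoded by Rgcc. After removal of the meninges and growth in serum, shaking detached neurons and oligodendrocyte precursors, and the adherent cells were serum-starved overnight. Some cultures then received TGF-β at 10 ng/ml over 24 h, and the others stayed untreated (control). There were 2 biological replicates in each of the 4 groups, 8 libraries in all, and p-values measure the spread between these cultures, whose animals the labels do not name.

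Library totals lay between 14920561 and 18956038 counts. Levels are given as CPM (counts scaled to a common library size, here by TMM), and, where genes are compared with one another, as the deposited FPKM, which corrects for transcript length. A gene was called a differentially expressed gene (DEG) when its log2 fold change was at least 0.6 in size and its adjusted p from edgeR was below 0.05. Rgcc gave 5.16 and 5.61 CPM in the control WT libraries, 11.9 and 23.1 in those with TGF-β, and 1.66 to 4.29 in the 4 KO libraries, so every KO library lay below every WT library, without any at 0.

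Astrocytes wrap vessels and synapses and keep the fluid around neurons constant. They take up the potassium that neurons release through inwardly rectifying (Kir) channels and the sodium/potassium pump, move water through the aquaporin Aqp4, which is concentrated in the endfeet on vessels, and share ions with their neighbors through gap junctions built from connexins. Mlc1 is a membrane protein of astrocyte contacts and endfeet. It takes part in the control of cell volume, and its loss causes a leukodystrophy with brain swelling.

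Of the 8 genes, 6 were lower after TGF-β and 2 were higher, in both genotypes. The control and TGF-β libraries of every one of the 8 did not overlap. Such a split was common over all genes tested. In WT 33.7% of them were lower and 35.4% higher without overlap, and in KO 32.9% and 34.3%. The size of the changes in the 8 genes ranged widely. The Kir channel gene Kcnj13 and the connexin gene Gjb6, both at low levels, were down-regulated 7.51-fold and 6.25-fold in WT and 9.17-fold and 5.13-fold in RGC-32 KO astrocytes. The abundant genes Aqp4, Mlc1 and Atp1b2 lay at between 0.672 and 0.789 of their control level, and Gja1 at 1.27 times its control level in WT and 1.26 times in KO.

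**Figure D1:**
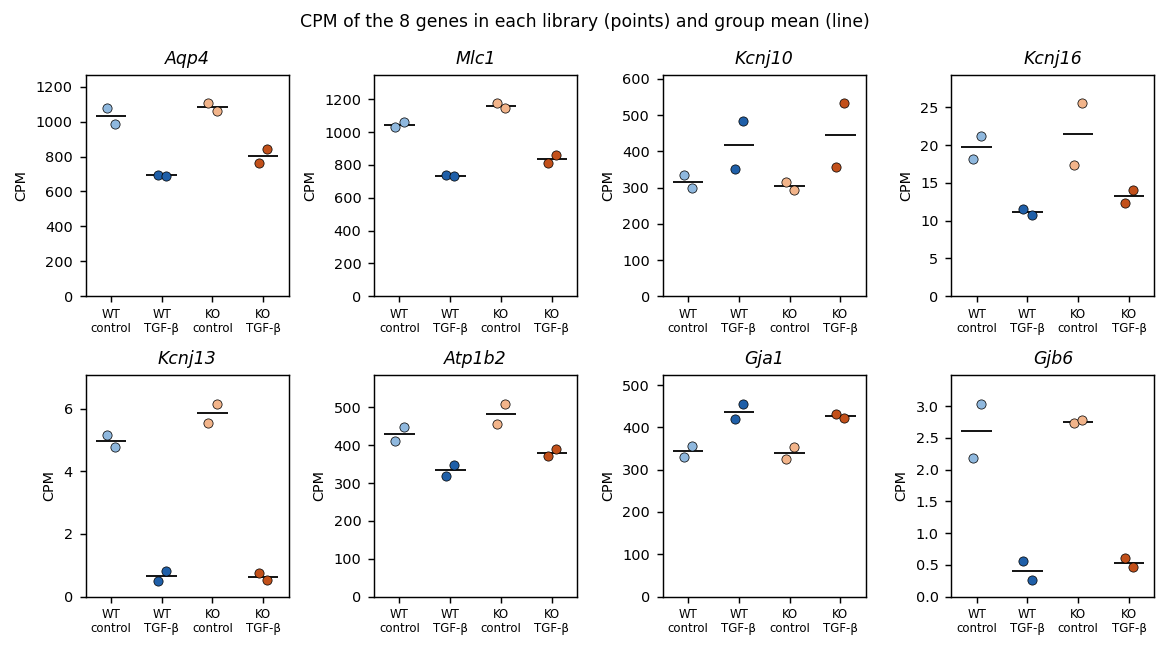
CPM (vertical axis, from 0) of each of the 8 genes in the control and TGF-β libraries of WT and RGC-32 KO astrocytes. Points are libraries, 2 per group, and lines are group means. Kcnj13 fell from between 4.77 and 6.16 CPM to between 0.498 and 0.831, while Gja1 and Kcnj10 were higher after TGF-β in both genotypes.

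Aqp4, the main water channel of the brain, was among the most abundant of the 8. It gave 1076 and 986 CPM in the control WT libraries and 696 and 690.4 after TGF-β. In RGC-32 KO astrocytes it gave 1104 and 1059.7 CPM without TGF-β and 761 and 842 with it. All 4 TGF-β libraries were thus below all 4 controls, and the KO libraries with TGF-β were above the WT libraries with TGF-β. Its log2 fold change of -0.57 (SE 0.08) in WT was just under the fold limit for a DEG, and that of -0.43 (SE 0.08) in KO was further from it. The gene lies on chr18:15389496-15410982 (minus strand, GRCm38, the assembly also called mm10). It overlaps the antisense gene AC133525.2 without any shared exon bases.

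Mlc1 behaved alike. It gave 1029 and 1059 CPM in control WT astrocytes and 738 and 731 after TGF-β, and in RGC-32 KO astrocytes 1175 and 1149 CPM and then 812 and 863. Again no TGF-β library reached the level of a control. For Mlc1 the log2 fold change came to -0.51 (SE 0.07) in WT and to -0.47 (SE 0.07) in KO, under the fold limit. The ratio of Aqp4 to Mlc1 FPKM lay between 0.465 and 0.536 in all 8 libraries, so this ratio stayed in a narrow range while both levels were lower after TGF-β. Mlc1 lies on chr15:88955884-88979007 (minus strand).

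Among the Kir channel genes, the 3 members moved in different directions. Kcnj10 encodes Kir4.1, the main potassium channel of astrocytes. It gave 334 and 299 CPM in control WT astrocytes and 351 and 483 after TGF-β. In RGC-32 KO astrocytes the values were 315 and 293 CPM without and 357 and 532 with TGF-β. The TGF-β libraries were above the controls in both genotypes, but in each genotype replicate 2 was far above replicate 1, which was close to the controls. Its log2 fold change, 0.40 (SE 0.20) in WT and 0.55 (SE 0.20) in KO, passed neither the fold limit nor the adjusted p. With 1 library left out at a time it lay between 0.13 and 0.61 for WT and between 0.21 and 0.81 for KO, the last without replicate 1 of the KO TGF-β group, when it was called.

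Kcnj16 encodes Kir5.1, a subunit that joins Kir4.1 in mixed channels and makes them more sensitive to pH. It gave 18.2 and 21.2 CPM in the control WT libraries and 11.6 and 10.7 after TGF-β. In RGC-32 KO astrocytes it gave 17.3 and 25.5 CPM without and 12.3 and 14.1 with TGF-β. Groups did not overlap, although the KO controls differed more from each other than the other pairs did. On the log2 scale the change was -0.82 (SE 0.19) for WT and -0.70 (SE 0.19) for KO cells, and Kcnj16 was a DEG in both. The call in WT was lost without replicate 2 of the controls (log2 fold change -0.70) or of the TGF-β group (-0.79). In KO it was lost without replicate 2 of the controls (-0.39) and without either TGF-β library (-0.60 without replicate 1 and -0.82 without replicate 2). The ratio of Kcnj10 to Kcnj16 FPKM was between 8.06 and 12.5 in the 4 controls and between 19.6 and 29.0 in the 4 TGF-β libraries.

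Kcnj13 encodes Kir7.1, a channel best known from the choroid plexus and the retinal pigment epithelium. It was counted with 80 reads in each WT control, and with 9 and 13 reads after TGF-β. The RGC-32 KO controls held 87 and 104 reads and the KO TGF-β libraries 11 and 8. In CPM this was 5.16 and 4.77 against 0.498 and 0.831 in WT, and 5.55 and 6.16 against 0.737 and 0.528 in KO. This gave log2 fold changes of -2.91 (SE 0.26) in WT and -3.20 (SE 0.27) in KO. The gap between the groups was several times the spread within them, and Kcnj13 was a DEG in both genotypes. Both controls of each genotype were above the filter of 0.631 CPM, but only 1 of the 2 TGF-β libraries of each was. After TGF-β the gene thus lay close to the filter. The ratio of Kcnj10 to Kcnj13 FPKM was between 30.7 and 37.1 in the controls and between 383 and 555 after TGF-β.

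Kcnj13 (chr1:87386363-87394729, minus strand) lies inside Gigyf2, a gene of the opposite strand, with which it shares 623 exon bases. The libraries were unstranded, so reads of the shared bases cannot be told apart. Gigyf2 gave between 59.6 and 77.3 CPM in the 8 libraries, with log2 fold changes of 0.16 in WT and 0.04 in KO after TGF-β, and was not called.

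The start regions of Kcnj13 and Kcnj10 are shown because the former was called lower after TGF-β, while the latter, the main Kir gene of astrocytes, was not called. Each run holds the 250 bases before the annotated start, 5′ to 3′ on the strand of the gene, from RefSeq (GRCm38.p6). Capitals mark the SMAD box CAGAC, the TATA box TATAAA, the AP-1 site TGANTCA and the E-box CACCTG, each sought on both strands.
Kcnj13, chr1:87394730-87394979, minus strand: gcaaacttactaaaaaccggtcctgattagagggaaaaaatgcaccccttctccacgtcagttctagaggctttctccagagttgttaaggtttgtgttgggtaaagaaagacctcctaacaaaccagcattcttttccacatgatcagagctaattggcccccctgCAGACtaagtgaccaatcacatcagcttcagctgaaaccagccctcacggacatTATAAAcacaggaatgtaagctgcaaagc
Kcnj10, chr1:172340960-172341209, plus strand: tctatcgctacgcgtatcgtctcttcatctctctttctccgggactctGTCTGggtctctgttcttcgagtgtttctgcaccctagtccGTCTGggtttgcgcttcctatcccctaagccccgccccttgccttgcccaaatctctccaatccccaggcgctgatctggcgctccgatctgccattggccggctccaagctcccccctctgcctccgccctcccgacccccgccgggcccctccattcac
The Kcnj13 window had a TATA box starting 29 bases before the start and 1 SMAD box at 83 bases, with a GC content of 45.2%. The Kcnj10 window had SMAD boxes at 202 and 161 bases, no TATA box, and a GC content of 62.0%. A SMAD box was found in 42.2% and a TATA box in 12.4% of the 32841 RefSeq windows of this length, whose median GC content was 52.4%. These matches are letters in a window and were not tested for binding.

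Atp1b2 encodes the beta 2 subunit of the sodium/potassium pump, the pump subunit typical of glia, which also serves in adhesion. It gave 412 and 447 CPM in control WT astrocytes and 319 and 349 after TGF-β. In RGC-32 KO astrocytes it gave 455 and 509.6 CPM without and 371 and 390 with TGF-β. The TGF-β libraries lay below the controls within each genotype. Atp1b2 changed by -0.36 (SE 0.08, log2) in WT and -0.34 (SE 0.08) in KO, under the fold limit. Atp1b2 lies on chr11:69599736-69605942 (minus strand).

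The connexin genes of the set moved apart. Gja1 encodes Cx43, the main connexin of astrocytes. It gave 331 and 356 CPM in control WT astrocytes and 419 and 456 after TGF-β, and in RGC-32 KO astrocytes 326 and 353 CPM and then 432 and 423. The groups did not overlap, and the 4 TGF-β libraries were close to each other. Gja1 changed by 0.35 (SE 0.07, log2) in WT and 0.33 (SE 0.07) in KO, under the fold limit.

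Gjb6 encodes Cx30, the second astrocyte connexin, which appears as astrocytes mature. It was counted with 34 and 51 reads in the WT controls and 10 and 4 after TGF-β, and with 43 and 47 reads in the KO controls and 9 and 7 after TGF-β. In CPM this was 2.19 and 3.04 against 0.553 and 0.256 in WT, and 2.74 and 2.78 against 0.603 and 0.462 in KO. All 4 TGF-β libraries were below the filter of 0.631 CPM and all 4 controls above it, so the gene passed the filter through the controls alone. Log2 fold changes were -2.64 (SE 0.36) for WT and -2.36 (SE 0.35) for KO, and Gjb6 met the rule for a DEG in both. Since the filter kept Gjb6 for its control levels, this call is a description and not a test. The ratio of Gja1 to Gjb6 FPKM lay between 71.6 and 118 in the controls and between 393 and 1130 after TGF-β, with few Gjb6 reads behind the latter.

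**Figure D2:**
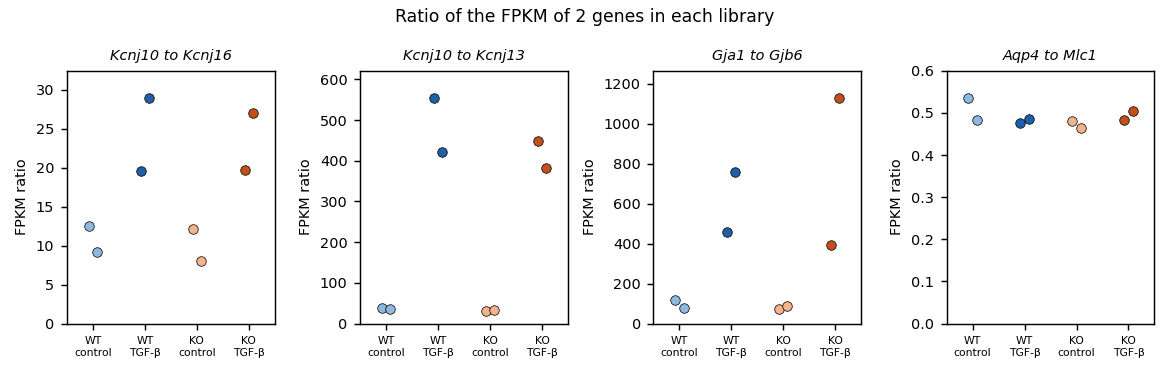
Ratio of the FPKM of 2 genes (vertical axes, linear and from 0) in each of the 8 libraries, for the Kir pairs, the connexin pair, and Aqp4 over Mlc1. Points are libraries. The first 3 ratios were higher in every TGF-β library than in every control, whereas Aqp4 to Mlc1 stayed between 0.465 and 0.536.

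The same windows are shown for Gja1, which was higher after TGF-β, and Gjb6, which was lower, with capitals as above.
Gja1, chr10:56377050-56377299, plus strand: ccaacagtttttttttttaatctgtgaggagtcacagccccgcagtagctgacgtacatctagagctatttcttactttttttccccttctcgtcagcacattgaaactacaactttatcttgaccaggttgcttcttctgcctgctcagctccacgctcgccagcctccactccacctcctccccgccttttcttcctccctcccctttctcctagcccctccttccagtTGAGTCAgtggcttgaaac
Gjb6, chr14:57133612-57133861, minus strand: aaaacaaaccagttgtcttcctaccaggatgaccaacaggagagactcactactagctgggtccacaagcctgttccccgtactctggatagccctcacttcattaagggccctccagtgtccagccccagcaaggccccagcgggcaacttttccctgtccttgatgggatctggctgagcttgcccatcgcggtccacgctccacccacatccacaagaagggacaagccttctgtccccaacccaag
The Gja1 window had 1 AP-1 site, starting 19 bases before the start, and neither a SMAD box nor a TATA box. The Gjb6 window had none of the 4 motifs. An AP-1 site was found in 6.75% and an E-box in 17.2% of all windows. The RefSeq table held 9 windows for 6 of the 8 genes, with none for Aqp4 and Atp1b2. A SMAD box was found in 3 of the 9, in Kcnj13, Kcnj10 and 1 of 4 Kcnj16 starts, and an E-box in the Mlc1 window.

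By the full call rule, Kcnj13, Kcnj16 and Gjb6 were down-regulated in WT, 3 of 8, where 5.65% of all tested genes were down-regulated and 7.72% up-regulated. The same 3 genes were down-regulated in RGC-32 KO astrocytes, where the shares over all genes were 4.93% and 6.61%, and none of the 8 was up-regulated in either genotype. By the adjusted p alone, 6 of the 8 genes were lower and Gja1 was higher in each genotype. That rule called 14.3% of all genes lower and 18.6% higher in WT, and 11.8% and 16.6% in KO. Libraries that did not overlap were common over all genes too. In WT 33.7% of genes were lower and 35.4% higher without overlap, and in KO 32.9% and 34.3%. Over the 8 genes the median of the log2 fold changes was -0.54 for WT and -0.45 for KO, against -0.005 and 0.003 over all genes tested. The TGF-β responses had a part in the choice of the 8 genes, so these counts describe the set and are not a test of it. They include Gjb6, which passed the filter through the controls alone.

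**Figure D3:**
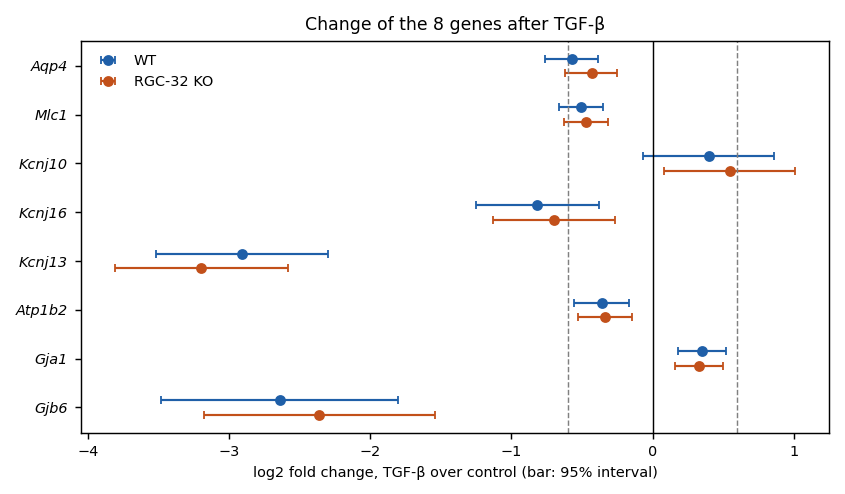
Log2 fold change of TGF-β over control (horizontal axis) for the 8 genes in WT and RGC-32 KO astrocytes, with 95% intervals from the edgeR fit and dashed lines at -0.6 and 0.6. The values of Kcnj13 and Gjb6 lay between -3.20 and -2.36, and the other 6 between -0.82 and 0.55, and the intervals of the genotypes overlapped for each gene.

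The comparison of genotypes asked whether the loss of RGC-32 changed these genes or their response. None of the 8 was called between WT and RGC-32 KO astrocytes, either without TGF-β, where 0.037% of all genes were called, or with it, where 0.0444% were. Mlc1 came nearest. Its difference, WT minus KO, was -0.16 on the log2 scale in the controls (SE 0.07, edgeR unadjusted p = 0.0485, adjusted p = 0.725). After TGF-β the difference of Mlc1 was -0.19 (95% interval -0.34 to -0.04, edgeR unadjusted p = 0.0219, adjusted p = 0.339). For Aqp4 the difference after TGF-β was -0.21 (95% interval -0.39 to -0.03, edgeR unadjusted p = 0.03, adjusted p = 0.373). Atp1b2 differed by -0.17 without TGF-β (95% interval -0.36 to 0.03, edgeR adjusted p = 0.751) and by -0.19 with it (95% interval -0.38 to 0.01, edgeR adjusted p = 0.442). Kcnj13 differed by -0.24 in the controls (edgeR adjusted p = 0.853) and Kcnj16 by -0.24 after TGF-β (edgeR adjusted p = 0.683).

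Without TGF-β the libraries of Kcnj13, Atp1b2 and Mlc1 did not overlap, with WT below KO, and 15.5% of all genes were of that kind. With TGF-β this held for Aqp4, Kcnj16, Atp1b2 and Mlc1, against 23.9% of all genes. At an unadjusted p below 0.05, edgeR listed 924 of all genes without TGF-β, 1 of them from the set, and 1576 with TGF-β, 2 of them from the set. None of these differences held after adjustment.

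The response to TGF-β was not shown to differ between genotypes for any of the 8 genes. The interaction (the log2 fold change in WT minus that in KO) was called for 0% of all genes, with edgeR adjusted p = 1 for each of the 8, and at an unadjusted p below 0.05 it listed 381 genes, 0 of them from the set. It was 0.29 for Kcnj13 (95% interval -0.69 to 1.27) and -0.29 for Gjb6 (95% interval -1.57 to 1.0), intervals that allow differences of more than 1 on the log2 scale for Kcnj13 and for Gjb6. For Aqp4 it was -0.14 (95% interval -0.4 to 0.12), and for Kcnj16 -0.12 (95% interval -0.73 to 0.49). The other 4 values lay between -0.15 and 0.02.

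Per transcript length, the order of the 8 genes was the same in WT and KO controls: Mlc1, Aqp4, Atp1b2, Gja1, Kcnj10, Kcnj16, Kcnj13 and Gjb6, with no overlap between neighbors. In the WT controls the mean FPKM was 363 for Mlc1, 185 for Aqp4, 131 for Atp1b2, 107 for Gja1 and 54.8 for Kcnj10. The remaining 3 followed at 5.14 for Kcnj16, 1.53 for Kcnj13 and 1.13 for Gjb6. After TGF-β, Gja1 (127 FPKM) was above Aqp4 (113) and Atp1b2 (96.3) in WT, whereas in KO the libraries of Aqp4 (133) and Gja1 (126) overlapped. Kcnj13 and Gjb6 overlapped at the bottom in both genotypes, at between 0.146 and 0.222 FPKM on average. With CPM divided by the length of the longest annotated transcript, Aqp4 stayed above Gja1 in WT as well (137 against 113 CPM per kilobase), and Kcnj13 stayed above Gjb6.

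**Figure D4:**
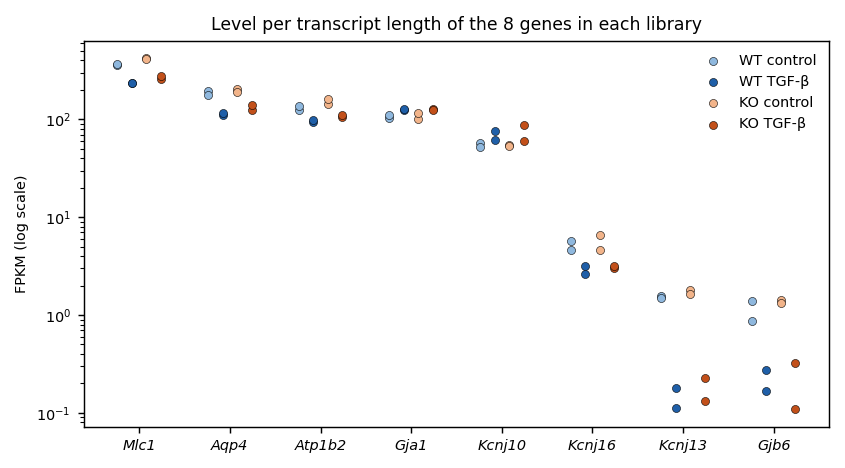
FPKM (vertical axis, log scale) of the 8 genes in each library, ordered by their control level. Points are libraries, colored by group. The controls ran from Mlc1 (363 in WT on average) down to Gjb6 (1.13), and Kcnj13 and Gjb6 fell below 1 in every TGF-β library.

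Other genes of the same pathways were taken from 5 lists, 72 genes in all, of which 55 were tested. In each genotype 10 of the 55 were up-regulated and 6 down-regulated after TGF-β by the full call rule, and none was called between genotypes or for the interaction. Over all genes that rule called 7.72% up and 5.65% down in WT, and 6.61% and 4.93% in KO, to be read beside each count that follows. The median of the 55 log2 fold changes was 0.12 for WT and 0.06 for KO.

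Of 14 tested genes for other aquaporins and the dystrophin complex, which anchors Aqp4 at the endfoot, the aquaporin genes Aqp1 and Aqp11 were down-regulated in both genotypes. Aqp1, the water channel of the choroid plexus, fell from 45.2 and 55.1 CPM to 13.3 and 9.02 in WT (edgeR adjusted p = 0.00149). In KO it fell from 36.8 and 42.0 CPM to 16.5 and 7.86 (edgeR adjusted p = 0.00522). Aqp11, an aquaporin of internal membranes, changed by -1.25 (edgeR adjusted p = 0.0108) and -1.22 (edgeR adjusted p = 0.0137) on the log2 scale. It was scarce, with 28 to 34 reads in the control libraries and 11 to 15 in the TGF-β libraries. Agrn, the heparan sulfate proteoglycan agrin of the basal lamina, was up-regulated by 0.75 in WT (edgeR adjusted p = 0.000359) and 0.63 in KO (edgeR adjusted p = 0.000823). Sgcd, encoding a sarcoglycan, was called in WT alone (log2 fold change 0.85, edgeR adjusted p = 0.00746, against 0.32 and adjusted p = 0.22 in KO), and its interaction was not called. Dmd (-0.09 in WT and -0.11 in KO) and Dag1 (0.16 and 0.08), which encode dystrophin and dystroglycan, were not called.

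Of 7 tested potassium channel genes outside the set, Kcnj4 and Kcnj15 were up-regulated and none was down-regulated. Kcnj4, which encodes another inward rectifier, had log2 fold changes of 1.09 in WT (edgeR adjusted p = 0.00464) and 0.86 in KO (edgeR adjusted p = 0.0138). For Kcnj15 they were 1.37 (edgeR adjusted p = 0.0145) and 1.54 (edgeR adjusted p = 0.0191). Both were scarce, at between 0.702 and 6.54 CPM over all libraries. Among the inward rectifier genes, Kcnj13 and Kcnj16 were thus called lower and Kcnj4 and Kcnj15 higher after TGF-β, while Kcnj10 and Kcnj2 (-0.56 in WT and -0.09 in KO) were not called. The other 9 of the 16 listed genes were not in the count table.

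Among 9 tested genes for pump subunits and their FXYD regulators, Atp1b1 and Fxyd1 were down-regulated and Fxyd6 up-regulated in both genotypes. Atp1b1 encodes the beta 1 subunit. In WT it fell from 272 and 302 CPM to 164 and 168 (edgeR adjusted p = 0.00028), and in KO from 316 and 318 CPM to 203 and 189 (edgeR adjusted p = 0.00053). So both Atp1b1 and Atp1b2 were lower after TGF-β, while the third beta gene Atp1b3 changed by 0.14 and 0.17 on the log2 scale and was not called. Fxyd1, encoding phospholemman, changed by -0.74 (edgeR adjusted p = 0.000656) and -0.60 (edgeR adjusted p = 0.00177). Fxyd6 was up-regulated 3.14-fold in WT (edgeR adjusted p = 0.0246) and 3.49-fold in KO (edgeR adjusted p = 0.0206).

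Connexin genes outside the set changed in both directions. Of 12 tested gap junction genes, 4 were up-regulated in WT and 5 in KO, and 2 were down-regulated in both. Gja5 (Cx40) and Gja4 (Cx37), connexins of blood vessels, were among those called up in both genotypes. Gja4 held 4 and 5 reads in the WT controls and 25 and 36 after TGF-β, and 9 and 5 reads in the KO controls and 30 and 25 after TGF-β. All 4 controls were below the filter of 0.631 CPM, so Gja4 passed it through the TGF-β libraries alone. Its call is therefore a description and not a test, although it is included in the counts of called gap junction and pathway genes. No fold or p is printed for Gja4, and its fold is only drawn, as a description, in the plot of connexin genes. The log2 fold changes of Gja5 were 1.56 (edgeR adjusted p = 0.00541) and 1.23 (edgeR adjusted p = 0.0144).

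Gjb2 (Cx26), the connexin gene that astrocytes are known to share with the meninges, fell like its neighbor Gjb6. It gave 17.4 and 32.3 CPM in the WT controls and 13.8 and 10.6 after TGF-β (log2 fold change -1.02, edgeR adjusted p = 0.0439). In KO it gave 29.9 and 24.7 CPM and then 12.1 and 6.94 (log2 fold change -1.52, edgeR adjusted p = 0.0132). Panx2, a pannexin gene, was down-regulated too (log2 fold change -0.96 in WT, edgeR adjusted p = 0.0486, and -1.03 in KO, adjusted p = 0.0328). Its reads were few, 36 to 73 in the control libraries and 22 to 30 in the TGF-β libraries. Gjb6 (chr14:57123303-57133611), Gjb2 (chr14:57098600-57104702) and Gja3 (chr14:57034460-57058100) lie side by side. Gja3 did not fall: it was called up in KO (log2 fold change 1.11, edgeR adjusted p = 0.0302) but not in WT (0.68, edgeR adjusted p = 0.161), on 11 to 36 reads a library.

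**Figure D5:**
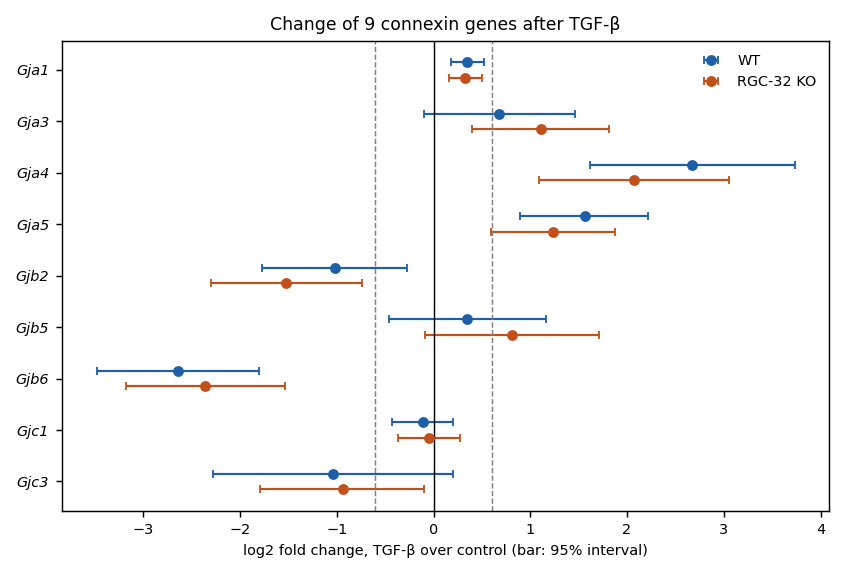
Log2 fold change of TGF-β over control (horizontal axis) for 9 connexin genes, in WT and RGC-32 KO astrocytes, with 95% intervals from the edgeR fit and dashed lines at -0.6 and 0.6. Gja5 (1.56 in WT and 1.23 in KO) and Gja4 lay to the right. Gjb6 and Gjb2 lay to the left (-2.64 to -1.02), and Gja1 near 0.35 in both genotypes. Gja4 passed the filter through the TGF-β libraries alone and Gjb6 through the controls alone, so both are drawn as a description.

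The last list held 13 tested genes for partners of Mlc1 and for volume-regulated ion transport. Only Lrrc8a was called. It encodes the essential subunit of the volume-regulated anion channel and was up-regulated by 0.81 in WT (edgeR adjusted p = 0.00101) and 0.69 in KO (edgeR adjusted p = 0.00236). Hepacam, which encodes the adhesion molecule that brings Mlc1 to cell contacts, gave log2 fold changes of -0.38 (edgeR adjusted p = 0.00629) and -0.43 (edgeR adjusted p = 0.00436), under the fold limit as for Mlc1 itself.

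Markers of cell types moved with TGF-β too. The summed level of 10 of 10 astrocyte markers, which share no gene with the set, lay between 9300.4 and 9881 CPM in WT controls and between 6665 and 7164 after TGF-β. In KO it lay between 10284 and 11660.5 CPM and then between 7778 and 8333. Vim alone made up most of this sum in every library. It gave 5918 and 6202 CPM in WT controls and 4474 and 4119.5 after TGF-β. In KO it gave 6211 and 6916 CPM and then 4467 and 4777, and it was not called in either genotype. Of the 10 markers, 3 were called lower in WT and 2 in KO, and 0 higher. Slc1a2 and Glul, for glutamate uptake and glutamine synthesis, were down-regulated in both genotypes (Slc1a2 by -0.68 in WT and -0.79 in KO, edgeR adjusted p = 0.00225 and 0.00154). Gfap, the intermediate filament gene, was not called (-0.36 and -0.25). In bulk RNA, fewer cells of a type and less RNA per cell cannot be told apart.

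Kcnj13 and Aqp1 are also known from the choroid plexus. Of 10 choroid plexus markers 5 were in the count table, and in WT their sum was 63.1 to 69.2 CPM without and 50.6 to 51.2 with TGF-β. In KO it was 67.1 to 70.1 CPM without and 56.7 to 58.3 with TGF-β. The marker Ttr lay between 0 and 3.67 CPM, Kl, Clic6, Slc4a5, Prlr and Kcne2 were not in the table, and 1 of the 5, Sostdc1, was called down in both genotypes. Ependymal markers (9 of 10 in the table) summed to between 424 and 508 CPM in controls and between 268 and 331 after TGF-β. The endothelial sum (7 of 8 markers) was between 291 and 328 CPM in controls and between 193 and 221 after TGF-β, and without Slco1a4, its most abundant marker, between 99.4 and 127 CPM and between 67.3 and 80.3. Cdh5 was called lower in both genotypes and Flt1 higher in both (log2 fold change 1.13 in WT and 0.63 in KO, edgeR adjusted p = 0.00372 and 0.039). The mural sum (5 of 8 markers) was between 175 and 210.4 CPM in controls and between 343 and 457 after TGF-β. The meningeal fibroblast sum (10 of 10) was between 3699.6 and 5760.2 CPM and then between 6668 and 10054. Without its 3 collagen genes it was between 735 and 965 CPM in controls and between 595 and 659.9 after TGF-β. The genes left went both ways. Dcn (-0.62) and Ogn (-0.85) were called lower in WT, and none was called lower in KO. Crabp2 (2.35 in WT and 2.23 in KO) and Aldh1a2 (1.04 and 0.86) were called higher in both genotypes. The microglia sum (11 of 11) lay between 1078 and 1422 CPM over all libraries and the neuron sum (5 of 8) between 98.1 and 138, while the oligodendrocyte lineage sum (9 of 10) was 380.1 to 401 CPM in controls and 466 to 625 after TGF-β. Without Cspg4, which was called higher, the latter sum was 353 to 377 CPM in controls and 287 to 367 after TGF-β, and Pdgfra and Cnp were called lower in both genotypes. None of the markers in the table was at 0 in every library. The part of other cells in the changes above was not tested.

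Over the 8 libraries, the logged levels of the 6 members that were lower after TGF-β had Pearson r between 0.85 and 0.98 in their 15 pairs, with Aqp4 and Mlc1 at 0.98. Kcnj10 and Gja1 had r = 0.73, and the 12 mixed pairs had r between -0.95 and -0.56. These points share the same treatment groups, so the values describe the TGF-β split more than anything within it. The genes most like Aqp4 were N4bp2l1, Vps11 and Aldh9a1 (r = 0.9954, 0.9931 and 0.9918 over 8 libraries). Those most like Mlc1 were Sparcl1, Dcaf8 and Rgma (0.9976, 0.9967 and 0.9953), and those most like Kcnj13 were Hunk, Tspyl4 and Cdkn1c (0.9954, 0.9925 and 0.9918). Kcnj10 was nearest to Hey1, Nr2f2 and Scrn1 (0.9892, 0.9882 and 0.9802), and Kcnj16 to Rad21, Flrt1 and Ifit2 (0.9948, 0.992 and 0.9902). For Gja1 they were Casc4, Mark4 and Nectin3 (0.9945, 0.9906 and 0.9893), for Atp1b2 Ecm2, Arsk and Fbln7 (0.9958, 0.9917 and 0.9905), and for Gjb6 C330020E22RIK, Copg2 and Mapk3 (0.9938, 0.9932 and 0.9927).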

How the data were processed

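RNA of 8 astrocyte libraries (4 groups, 2 biological replicates each) was sequenced unstranded. The submitters' processing notes name STAR, Cufflinks and DESeq and the build mm10; the program that made the counts is not given in the sources used here. The authors deposited raw counts per gene, and FPKM values per gene from Cufflinks. Columns of the authors' own TGF-β comparisons, which hold fold changes and p-values, were not used. Counts of 13937 genes were filtered with filterByExpr (13509 kept), scaled by TMM and fitted with edgeR 4.0.16 (R 4.3.3) by quasi-likelihood over all 8 libraries, without a replicate block, with Benjamini-Hochberg adjustment over all genes. A DEG needed an adjusted p below 0.05 and a log2 fold change of at least 0.6 in size; the interaction needed the adjusted p alone. Standard errors are the fold change over the square root of F. FPKM was used for levels between genes and, on the log2 scale with a pseudocount of 0.1 or 1, for a limma fit as an alternative.

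DESeq2 1.42.0, limma-voom 3.58.1, other scalings and filters, Bonferroni's correction, the replicate block and leaving out each library were the other alternatives. The fit was tested on simulated data. Replicates differed by 6.37 to 10.5 times the counting variance over genes (chi-square per degree of freedom), so none was merged. Totals per library ran from 14920561 to 18956038 counts, and intervals come from the fit. Positions are from GENCODE M21 (GRCm38). The 8 genes, the pathway lists and the cell type markers were chosen with earlier results of these data known. Pathway genes were named by a rule: up to 3 per list and direction with the largest mean change among those called in both genotypes, and otherwise those called in 1. A few genes not called were also named for their known role, after their values were seen. Genes most like a member were the 3 with the highest Pearson r of log2 CPM (prior count 2) outside the set. Some genes of the pathway lists are counted in the totals but are not reported here by name.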

Additional observations from a re-analysis of the deposited data

How the results depend on the processing

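The direction of all 8 TGF-β log2 fold changes held in both genotypes under every alternative run. The 3 calls made in each genotype were also made by DESeq2 and limma-voom. Bonferroni's correction left 0 of them in WT and 1 in KO. Without a fold limit 7 of 8 genes were called in each genotype. A minimum of 10 counts in every library removed Kcnj13 and Gjb6 and left 1 call of 6 genes in each. FPKM with a pseudocount of 0.1 or 1 gave 5 calls in WT, adding Aqp4 and Mlc1, and 4 in KO, adding Mlc1; the cause was not tested. Aqp4 was called in WT under 4 of 19 alternatives, among them the fit without replicate 2 of the WT controls (-0.63). Leaving out 1 library at a time changed which genes were called. Without replicate 2 of the WT controls, Aqp4 was called in WT but Kcnj16 (-0.70) was not. Without replicate 1 of the KO TGF-β group, Kcnj10, which was higher (0.81), was called in KO but Kcnj16 was not.

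Of the 55 pathway genes, 16 were called in each genotype. Bonferroni's correction left 1 in WT and 0 in KO, the rule without a fold limit called 29 in WT, FPKM with a pseudocount of 1 called 9 in KO, and leaving out 1 library gave 11 to 17 in WT and 6 to 16 in KO, with 9 without replicate 2 of the KO controls, 10 without replicate 1 and 6 without replicate 2 of the KO TGF-β group. By CPM per kilobase of the longest transcript, 4 of 8 genes kept their place in the WT order after TGF-β.

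Interactions, none called, changed sign for Kcnj13 (-0.11 to 0.64 with 1 library left out, and -0.02 on FPKM with pseudocount 0.1), Kcnj16 (-0.43 to 0.13 with 1 library left out) and Gjb6 (-0.95 to 0.12 with 1 library left out, and 0.38 and 0.18 on FPKM with pseudocounts of 0.1 and 1). The report gives 13 further genotype and interaction values of the members only as a range or not at all. Of these, none above 0.36 in size, 12 changed sign under at least 1 alternative and 0 changed their call.

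The replicate numbers were not taken as pairs, since the labels name no shared batch. Same-numbered control and TGF-β libraries deviated in opposite ways (r = -0.34 in WT and -0.35 in KO, across genes), and same-numbered libraries of the 2 genotypes in the same way (r = 0.49 for controls and 0.25 with TGF-β). The replicate block left 3 of 8 genes called in each genotype and 14 pathway genes in each. Crossing the numbers between control and TGF-β libraries, an alternative chosen after seeing the data, also gave 3 of 8 genes in each genotype and 16 pathway genes in each, and by the adjusted p alone it listed Kcnj10 too, which the fit without a block did not. With 9 to 13 Kcnj13 reads and 4 to 10 Gjb6 reads in the WT TGF-β libraries, the size of their falls is known less well than its direction.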
